A study of Mus musculus with 6 samples.

Results

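The caveolins and cavins examined here are 8 genes whose products build caveolae, picked by name: Cav1, Cav2, Cav3, Cavin1, Cavin2, Cavin3, Ehd2 and Pacsin2, out of 54532 genes in the deposited table. Expression was measured by bulk RNA-seq of polyadenylated RNA from cultured primary mouse aortic endothelial cells (MAEC), untreated and grown with 20% fetal bovine serum, heparin and endothelial growth factors. The groups were 3 female and 3 male libraries. Both carried the Oct4 KO genotype, a knockout of the pluripotency factor OCT4 restricted to endothelial cells of the donor mice. The driver of the deletion, the age of the mice and the mouse or culture behind each library are not given in the sources used here. The p-values thus reflect the variation among these libraries alone, which could be technical, and the sex of the mice cannot be told apart from the culture derived from them. Wild-type cells were not analysed here, so each result compares female with male cells of the knockout genotype.

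Caveolae are flask-shaped pits of the plasma membrane that buffer membrane tension and take up and gather signalling proteins, and they are abundant in endothelial cells, adipocytes, fibroblasts and muscle. Caveolins are hairpin membrane proteins that oligomerise in the membrane, and cavins are coiled-coil proteins that coat the pit from the cytosol. EHD2, an ATPase, and PACSIN2, an F-BAR protein that binds curved membrane, sit at the neck of the pit.

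Total counts were 19299742 to 23064738 per library. The labelled cell type was poorly marked at the RNA level. Of 12 endothelial markers 10 were under 1 CPM (counts scaled by the effective library size) in all 6 libraries, and their sum was 4.76 to 7.34 CPM in female and 4.99 to 5.68 CPM in male libraries. Emcn, Cldn5 and Robo4 had 0 counts throughout. All 8 fibroblast markers were above 10 CPM in every library, and their sum was 16340 to 18112 CPM in female and 7023 to 7623 CPM in male libraries. The gap in the sum was uneven over the list. Dcn averaged 6375 CPM in female and 442 CPM in male libraries. Col1a1 averaged 1176 and 1143 CPM, and Col1a2, the only one with a lower mean in female libraries, 1184 and 1615 CPM. In bulk RNA, fewer cells of a type and less RNA per cell cannot be told apart. The knockout is restricted to endothelial cells, and whether the sequenced cells carry the deletion was not tested here.

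Female and male cells carried the caveolar messages in different proportions. Cav3, the muscle caveolin, had 0 counts in every female library and was read at a low level in every male library. Cavin2 was 9.13-fold lower in female cells. Cav1, Cav2, Ehd2 and Pacsin2 were 1.27- to 1.5-fold higher in female cells, Cavin1 was higher by 1.14-fold, and Cavin3 was 1.43-fold lower, the calls of these last cavins depending on the processing. Every member passed the low-count filter, Cav3 only through the male libraries. In edgeR's quasi-likelihood test, with Benjamini-Hochberg adjustment over the 14814 genes tested, 5 of the 7 members other than Cav3 were called higher and 2 lower at an adjusted p under 0.05. Across all tested genes 30.9% were called higher in female cells, 29.8% lower and 60.7% in either direction. The library values of female and male cells did not overlap for any of these 7 members, and 67.1% of all tested genes did not overlap either. Cav3 is left out of these counts and of any test, since it could enter the fit only by being high in male cells.

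**Figure D1:**
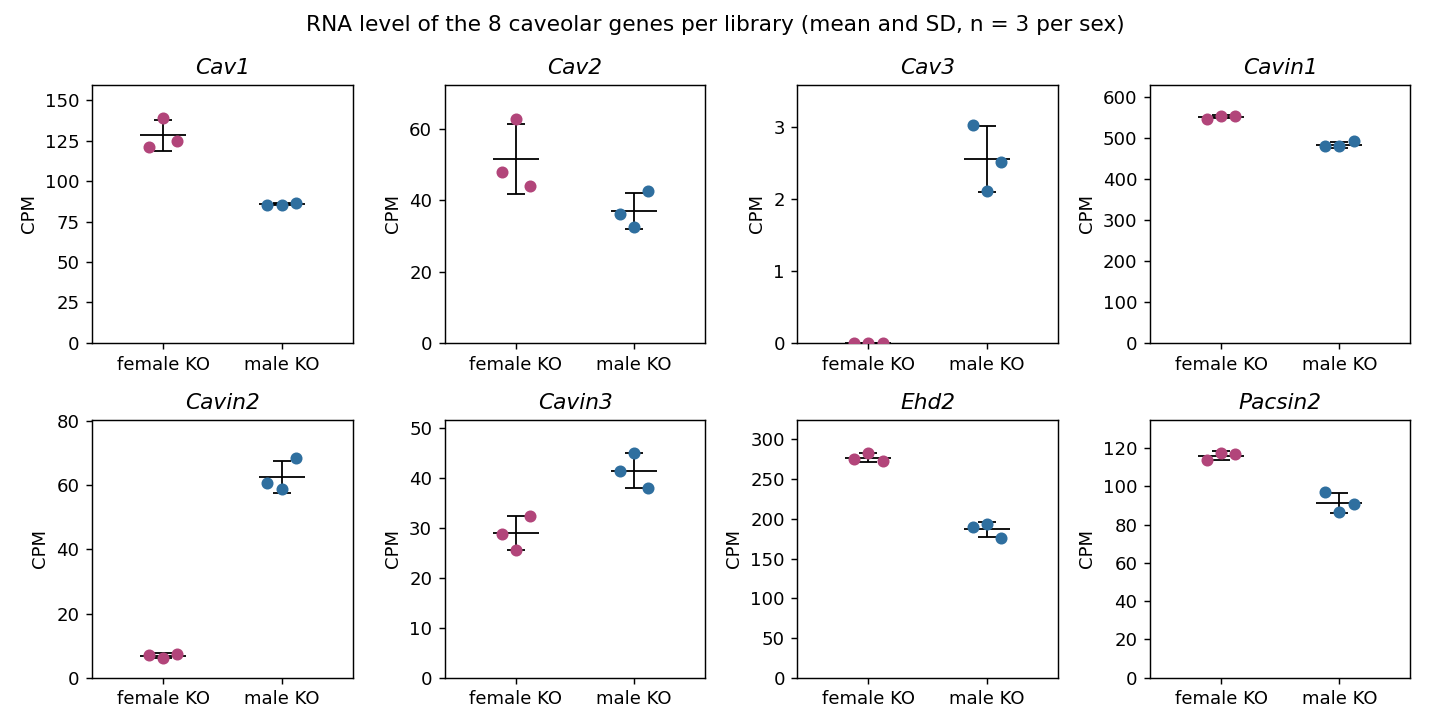
RNA level in CPM (counts scaled by the effective library size) of each caveolar gene in the 3 female and 3 male Oct4 KO libraries, on linear axes from 0; points are libraries, and bars give the mean and SD. The female points lie below the male points for Cav3, Cavin2 and Cavin3 and above them for the other 5 genes, and all 3 female points of Cav3 are at 0.

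The promoters of 4 members are printed: those of Cavin2 and Cav3, the members with the greatest differences, and those of the neighbours Cav1 and Cav2, which were both higher in female cells. Each runs from 250 bases before to 50 bases after the RefSeq start site (GRCm38.p6, 5′ to 3′ on the gene's strand). Of the 8 members 7 were matched, all but Cavin3. Capitals mark matches to the GC box (GGGCGG), the CCAAT box (CCAAT), the TATA box (TATAAA) and the CArG box, each searched on both strands.
Cavin2 promoter, chr1:51288876-51289175, plus strand: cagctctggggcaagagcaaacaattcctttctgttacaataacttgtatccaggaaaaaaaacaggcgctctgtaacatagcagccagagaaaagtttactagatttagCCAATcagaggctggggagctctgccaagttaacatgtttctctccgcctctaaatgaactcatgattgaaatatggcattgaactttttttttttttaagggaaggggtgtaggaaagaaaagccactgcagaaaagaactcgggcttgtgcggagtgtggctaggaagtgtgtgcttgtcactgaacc
Cav3 promoter, chr6:112459255-112459554, plus strand: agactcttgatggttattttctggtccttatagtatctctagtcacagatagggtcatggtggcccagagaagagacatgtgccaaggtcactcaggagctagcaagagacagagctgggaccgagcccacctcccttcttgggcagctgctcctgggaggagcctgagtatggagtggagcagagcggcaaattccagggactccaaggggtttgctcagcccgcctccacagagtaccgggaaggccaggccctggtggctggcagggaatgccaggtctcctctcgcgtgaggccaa
Cav1 promoter, chr6:17306085-17306384, plus strand: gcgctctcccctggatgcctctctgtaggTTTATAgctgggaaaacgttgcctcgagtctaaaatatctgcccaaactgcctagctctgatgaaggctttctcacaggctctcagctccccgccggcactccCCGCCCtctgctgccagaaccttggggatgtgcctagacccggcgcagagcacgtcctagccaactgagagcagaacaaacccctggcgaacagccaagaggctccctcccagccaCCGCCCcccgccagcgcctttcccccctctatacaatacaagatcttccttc
Cav2 promoter, chr6:17280935-17281234, plus strand: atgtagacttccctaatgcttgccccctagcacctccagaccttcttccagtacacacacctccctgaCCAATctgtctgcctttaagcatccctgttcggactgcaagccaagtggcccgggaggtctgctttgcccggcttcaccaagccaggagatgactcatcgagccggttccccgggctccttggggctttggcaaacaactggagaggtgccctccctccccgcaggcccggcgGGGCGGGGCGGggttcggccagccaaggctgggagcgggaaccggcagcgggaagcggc
The Cavin2 promoter held 43.3% G and C, against a median of 52.7% over 32851 mouse promoters of the same length, and the other 6 matched members held 58% to 66.7%. It had 1 CCAAT match and 0 GC box matches. None of the 4 motifs occurred in the Cav3 window. The Cav1 window held 2 GC box matches and 1 TATA match, and the Cav2 window held 2 GC box matches, which share a base, and 1 CCAAT match. Ehd2 and Pacsin2 had 2 GC box matches each and Cavin1 had 1. The RefSeq start site used for Cavin1 lies 270 bases inside the deposited gene, so its whole window is downstream of the deposited start. Among all promoters 35.7% held a GC box, 37.4% a CCAAT box, 13.6% a TATA box and 1.63% a CArG box, and none of the matched members held a CArG box. A match is a description of the letters and does not show that a factor binds there.

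Among the caveolins, Cav1 (ENSMUSG00000007655, mm10 chromosome 6, 17306335 to 17341452, plus strand), the main structural protein of caveolae outside muscle, stood at 121, 139 and 124 CPM in the female libraries and at 85.4, 85.4 and 86.5 CPM in the male libraries. Female replicate 2 was the highest library, and the male libraries lay close together. The log2 fold change, female over male, was 0.58 ± 0.08 (SE; edgeR adjusted p = 9.5e-06). Cav2 (ENSMUSG00000000058, chromosome 6, 17281185 to 17289115, plus strand), which forms mixed oligomers with caveolin-1, stood at 48.0, 62.7 and 43.8 CPM in the female libraries and at 36.2, 32.5 and 42.4 CPM in the male libraries. The lowest female and the highest male library of Cav2 were nearly level. Its log2 fold change was 0.47 ± 0.13 (edgeR adjusted p = 0.00451), and 0.31 without female replicate 2 (adjusted p = 0.0316).

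Cav3 (ENSMUSG00000062694, chromosome 6, 112459505 to 112472872, plus strand), whose product replaces caveolin-1 in skeletal and cardiac muscle, gave 0 counts in all 3 female libraries, against 64, 42 and 61 counts in male replicates 1, 2 and 3. With 0 counts, a female library allows a level of up to 0.154 CPM (3 counts, a 95% counting limit), while the male libraries averaged 2.55 ± 0.46 CPM (SD, n = 3). The mean floor of 3 counts per female library was 17.0-fold below the male mean. That ratio does not allow for the spread or the counting error of the male libraries. Of 10 skeletal and cardiac muscle markers 9 were under 1 CPM in all 6 libraries, and Myod1, Myog, Myf5, Pax7 and Myh6 had 0 counts. The sum of these markers was 0.483 to 1.54 CPM in female and 0.740 to 1.09 CPM in male libraries. Cavin4, the muscle cavin, was under 1 CPM as well, at 3 counts in each female library and 1, 0 and 10 counts in male ones. Of 8 smooth muscle markers 3 were called lower in female cells, 1 was not called and 4 were too low to test. Of all tested genes 29.8% were called lower. The 8 smooth muscle markers summed to 60.9 to 65.2 CPM in female and 155 to 168 CPM in male libraries. Most of that sum was Smtn (57.5 CPM in female and 132 CPM in male cells) and Acta2 (3.71 and 23.3 CPM). Lmod1, called lower like Smtn and Acta2, averaged 0.388 CPM in female and 5.35 CPM in male libraries. Tagln, Myh11, Cnn1 and Des averaged under 1 CPM in both sexes, and Myocd had 0 counts in all libraries. The part of smooth muscle RNA in the Cav3 difference was not tested.

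Among the cavins, Cavin1 (ENSMUSG00000004044, chromosome 11, 100956733 to 100970887, minus strand), without which caveolae do not form, was the member with the highest level per length in both sexes. It stood at 548, 553 and 555 CPM in the female libraries and at 480, 479.9 and 493 CPM in the male libraries. The groups did not overlap, but the gap was small. The log2 fold change was 0.19 ± 0.07 (edgeR adjusted p = 0.0278), and this call depended on the processing. It was lost when libraries were scaled by total counts alone (log2 0.07, adjusted p = 0.389), which moved the median of all genes to -0.13, so that Cavin1 stood 0.20 above that median. Leaving out a library also ended the call for female replicate 1 (adjusted p = 0.0696) and 3 (0.0573) and for male replicate 1 (0.104) and 2 (0.0691), as did upper quartile scaling (0.186), dropping the low-count filter (0.0526) and the replicate block (0.0646). With a correction for gene length the value was 0.30 (adjusted p = 0.000718).

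Cavin2 (ENSMUSG00000045954, chromosome 1, 51289126 to 51302960, plus strand), a cavin that binds phosphatidylserine and curves membrane and that mouse endothelial cells of some organs need for their caveolae, stood at 7.05, 6.04 and 7.45 CPM in the female libraries and at 60.6, 58.8 and 68.4 CPM in the male libraries. All 3 female libraries were far below every male library. The log2 fold change was -3.19 ± 0.12 (edgeR adjusted p = 6.17e-13), which lies at percentile 94.8 of all tested genes by size of change. The change kept its call in all 14 alternative analyses, at -3.31 to -3.00. Of 8 adipocyte markers, which belong to another cell type rich in caveolae, 3 could be tested and all 3 were lower in female cells. Of all tested genes 29.8% were called lower and 30.9% higher. The 8 adipocyte markers summed to 15.9 to 20.1 CPM in female and 44.0 to 54.8 CPM in male libraries. The 3 tested ones were Pparg (5.52 CPM in female and 26.3 CPM in male cells), Fabp4 (3.78 and 10.8 CPM) and Lipe (8.72 and 12.9 CPM). Lep, Cidec and Cfd had 0 counts in all libraries. Adipoq averaged 0.066 CPM in female and 0.145 CPM in male libraries, and Plin1 0.034 and 0.063 CPM. Rgs5, a pericyte marker, averaged 0.756 ± 0.456 CPM in female and 256 ± 10.1 CPM in male libraries (SD, n = 3 each). Over the whole list of 6 pericyte markers 4 were higher and 2, Rgs5 and Pdgfrb, lower in female cells. Among the higher ones, Cspg4 averaged 108 ± 12.7 CPM in female and 3.19 ± 0.23 CPM in male libraries. The sum of the list was 442 to 460 CPM in female and 720 to 761 CPM in male libraries, with Rgs5 a large part of the male sum. The part of such cells in the Cavin2 difference was not tested.

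Cavin3 (ENSMUSG00000037060, chromosome 7, 105480083 to 105482300, minus strand), a cavin bound by protein kinase C delta, stood at 28.9, 25.6 and 32.4 CPM in the female libraries and at 41.4, 45.0 and 38.0 CPM in the male libraries. Each female library was below each male library. The log2 fold change was -0.52 ± 0.11 (edgeR adjusted p = 0.000686). With a correction for gene length it was -0.14 (adjusted p = 0.221), which ended the call. Cavin3 has an annotated length of 1662 bases, the second shortest of the members after Cav3 with 1157 bases, where the other 6 have 3055 to 5119 bases.

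**Figure D2:**
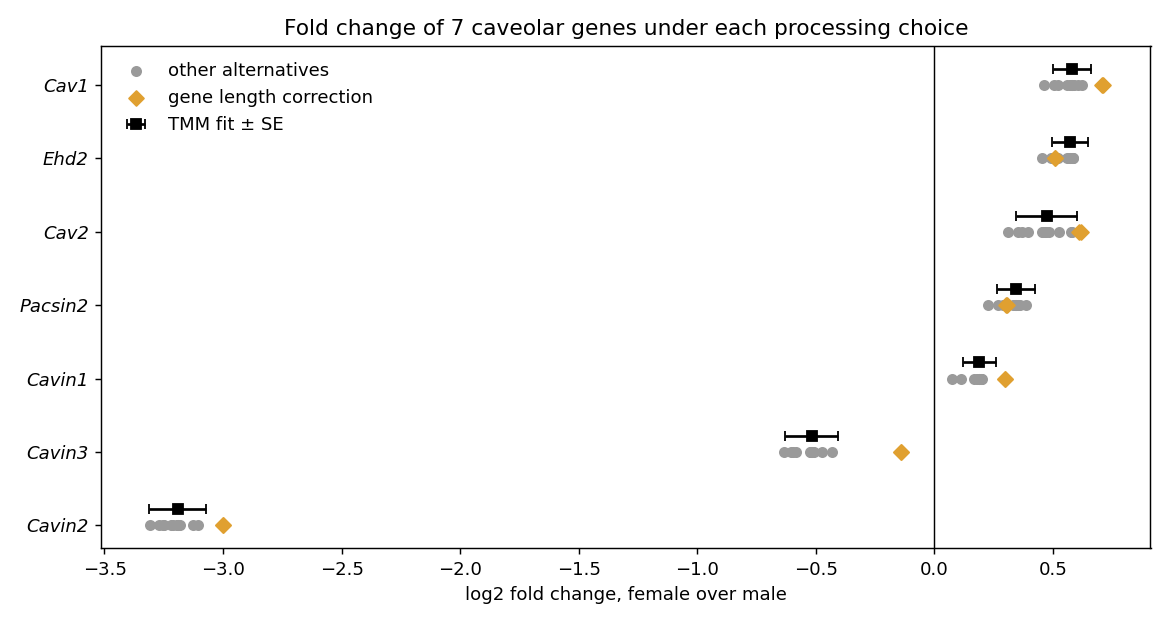
Log2 fold change, female over male, of 7 caveolar genes in the TMM-scaled edgeR fit (black squares, bars give the SE), with gene length correction (orange diamonds) and under the other alternatives (grey points). Cav3 is left out, since its female counts were 0. Cavin2 stays between -3.31 and -3.00, whereas Cavin3 moves toward 0, to -0.14, with the length correction.

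The messages of the neck proteins were higher in female cells. Ehd2 (ENSMUSG00000074364, chromosome 7, 15946958 to 15967567, minus strand), whose ATPase holds caveolae at the cell surface, stood at 276, 283 and 272 CPM in the female libraries and at 190.3, 194 and 176 CPM in the male libraries (log2 fold change 0.57 ± 0.08, edgeR adjusted p = 4.99e-06). Pacsin2 (ENSMUSG00000016664, chromosome 15, 83375607 to 83464606, minus strand), which helps shape the neck, stood at 114, 118 and 117 CPM in the female libraries and at 97.2, 86.5 and 90.7 CPM in the male libraries (log2 fold change 0.34 ± 0.08, edgeR adjusted p = 0.00118). Neither gene overlapped between the sexes, and both calls held in all 14 alternatives, with Pacsin2 at 0.23 when libraries were scaled by total counts alone.

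Levels per length, in RPKM (CPM divided by the annotated gene length in kilobases), allow the members to be ordered. In female cells the order was Cavin1 at 154 ± 1.10, Ehd2 at 54.1 ± 1.11, Cav1 at 37.2 ± 2.74, Pacsin2 at 23.7 ± 0.44, Cavin3 at 17.4 ± 2.05, Cav2 at 15.4 ± 2.97, Cavin2 at 2.24 ± 0.24 and Cav3 at 0 RPKM (SD, n = 3). Among neighbours in that order, only the library values of Cavin3 and Cav2 overlapped. In male cells it was Cavin1 at 135 ± 2.04, Ehd2 at 36.4 ± 1.89, Cavin3 at 25.0 ± 2.09, Cav1 at 24.9 ± 0.20, Cavin2 at 20.5 ± 1.67, Pacsin2 at 18.6 ± 1.09, Cav2 at 11.1 ± 1.51 and Cav3 at 2.21 ± 0.40 RPKM (SD, n = 3). There Cavin3 overlapped with Cav1, and Cavin2 with Pacsin2. Cavin2 was thus above Cav2 and overlapped with Pacsin2 in male cells, while in female cells it was below every member except Cav3. By RPKM Cavin2 was at percentile 33.3 of the tested genes in female and 82.9 in male cells, and Cavin1 was at percentile 98.4 and 97.9.

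The make-up of the families differed accordingly. The caveolins summed to 52.7 ± 5.61 RPKM in female and 38.2 ± 1.83 RPKM in male cells (SD, n = 3 each). Cav1 made up 70.8% ± 2.56 of that sum in female and 65.2% ± 2.73 in male cells, Cav2 29.2% ± 2.56 and 29.0% ± 2.56, and Cav3 0% and 5.77% ± 0.96. The cavins summed to 174 ± 2.75 RPKM in female and 180.4 ± 2.03 RPKM in male cells. Cavin2 made up 1.29% ± 0.12 of the cavin sum in female and 11.4% ± 0.81 in male cells, and Cavin1 88.7% ± 1.15 and 74.8% ± 0.47.

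**Figure D3:**
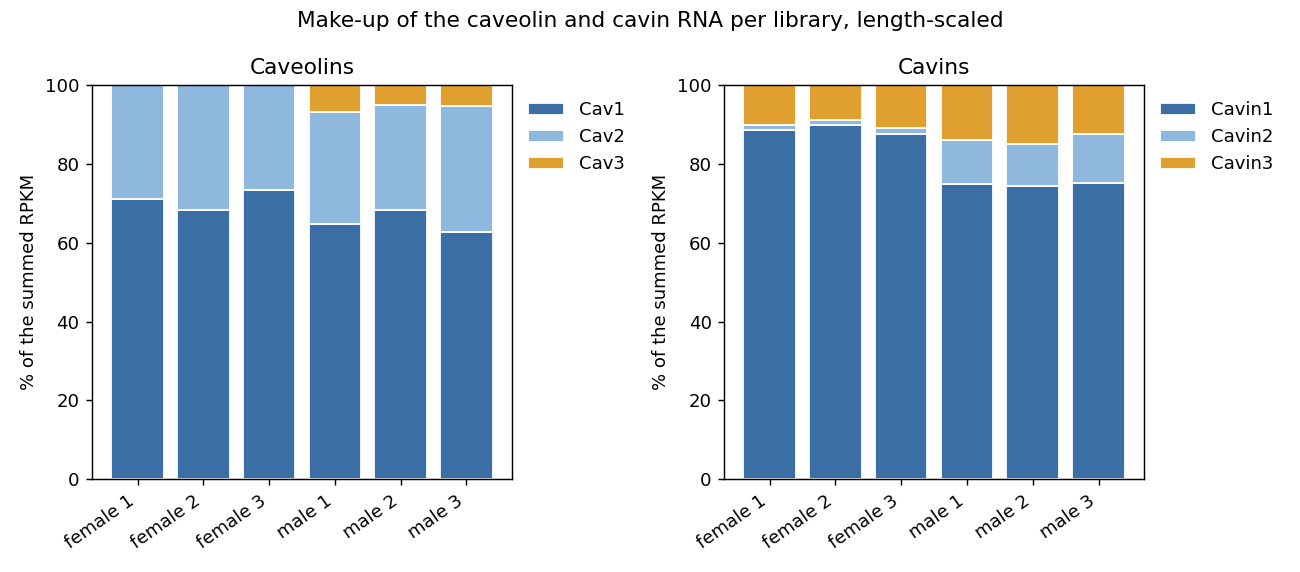
Share of each gene in the summed RPKM (length-scaled level) of the caveolins (left) and the cavins (right) in each female and male library, in percent. Cav3 is seen only in male bars, and Cavin2 takes about 1.29% of the cavin sum in female and 11.4% in male libraries.

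Ratios of RPKM within a library do not depend on the scaling between libraries, and 6 were compared by an exact permutation test (two-sided, smallest possible p = 0.1, Benjamini-Hochberg over the 6), so none could pass the threshold. The Cavin2 to Cavin1 ratio was 0.0151, 0.0128 and 0.0158 in female and 0.148, 0.144 and 0.163 in male libraries, a log2 difference of -3.38 (exact p = 0.1, adjusted 0.15). The Cavin3 to Cavin1 ratio was 0.113 ± 0.013 in female and 0.185 ± 0.018 in male cells (SD, n = 3 each, exact p = 0.1). The ratios are not corrected for a trend with gene length that differs between libraries. With that correction the log2 fold change was -0.14 for Cavin3 and 0.30 for Cavin1, which are closer together than without it. The Cavin1 to Cav1 ratio was 4.15 ± 0.28 in female and 5.42 ± 0.04 in male cells (SD, n = 3 each, exact p = 0.1), again with no overlap. Pacsin2 to Cav1 also did not overlap, at 0.637 ± 0.038 in female and 0.749 ± 0.045 in male cells (exact permutation p = 0.1). The Cav2 to Cav1 ratio overlapped, at 0.413 ± 0.051 in female and 0.446 ± 0.057 in male cells (exact permutation p = 0.5), as did Ehd2 to Cav1, at 1.46 ± 0.08 in female and 1.46 ± 0.09 in male cells (exact permutation p = 1).

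Cav2 and Cav1 lie on the same strand 17219 bases apart. Among 22 other genes within 500 kb of the pair 6 were tested, of which 2 were called higher in female cells, 3 lower and 1 neither. Tfec, a transcription factor of the MiT family, was at 18.5 ± 1.94 CPM in female and 4.63 ± 0.19 CPM in male cells (SD, n = 3 each; log2 2.00 ± 0.16, edgeR adjusted p = 1.08e-08). Tes, whose product testin is a focal adhesion protein, was lower in female cells, at 43.8 ± 7.13 CPM against 161 ± 9.63 CPM in male cells (log2 -1.88 ± 0.11, edgeR adjusted p = 1.14e-10). On the other side, Met, the receptor of hepatocyte growth factor, was at 14.7 ± 3.34 CPM in female and 9.32 ± 1.05 CPM in male cells (log2 0.66 ± 0.17, edgeR adjusted p = 0.00355; 0.40 and 0.0461 with the length correction). Capza2, an actin capping protein, was not called (log2 0.14 ± 0.08, edgeR adjusted p = 0.17). The other lower neighbours were the lincRNA Gm15473 (0.268 ± 0.081 CPM in female and 19.8 ± 1.44 CPM in male cells) and Gm4876, annotated as antisense to Tes and uncertain for that reason. The genes around the caveolin pair moved in both directions, as did the tested genes as a whole. Of all tested genes 30.9% were called higher in female cells and 29.8% lower. Gm15581, annotated on the opposite strand across both Cav1 and Cav2, had 0 counts in all 6 libraries. Of the genes that overlap a member, Gm5417 in Pacsin2 had the most counts, 23 to 58 per library.

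Each related list of the caveolar system is described by its counts and its median, with no test of the list as a whole. The median log2 fold change of all tested genes was -0.01. For the counts of every list below, the share over all tested genes was 30.9% called higher, 29.8% lower and 60.7% in either direction. Of 10 genes of caveolin partners and kinases 9 were tested, with 7 higher, 2 lower and a median of 0.46. Fyn, a kinase of the Src family that phosphorylates caveolin-1, was at 67.3 ± 2.94 CPM in female and 40.3 ± 1.45 CPM in male cells (log2 0.74 ± 0.09, edgeR adjusted p = 1.39e-06). Ror1, a receptor that holds caveolin-1 and cavin-1 together, went the other way, at 5.00 ± 0.35 CPM in female and 16.7 ± 2.77 CPM in male cells (log2 -1.74 ± 0.17, edgeR adjusted p = 1.8e-07). Plvap, which forms the diaphragm of endothelial caveolae, was the other lower gene, at 2.28 ± 1.2 CPM in female and 6.0 ± 0.98 CPM in male cells. Flna, the actin crosslinker that anchors caveolae, had a log2 fold change of 0.46 ± 0.08 (edgeR adjusted p = 0.000102) and Insr, the insulin receptor, of 0.55 ± 0.08 (edgeR adjusted p = 1.48e-05). Both calls were lost with the length correction, at 0.12 for Flna (adjusted p = 0.116) and 0.09 for Insr (adjusted p = 0.285). The list median of 0.46 is the value of Flna, and it was not recalculated with that correction. Nos3, the endothelial nitric oxide synthase that caveolin-1 binds, was too low to test, at 4, 3 and 3 counts in female replicates and 4, 0 and 9 counts in male replicates.

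A further list held 9 genes that shape membranes, namely paralogs of members and the dynamins. Of these 7 were tested, of which 2 were higher, 2 lower and 3 short of the threshold, and the median was 0.11. The 2 higher genes, Dnm1 and Dnm3, were both dynamins. Dnm1, a dynamin that cuts vesicles from the membrane, was at 516 ± 42.3 CPM in female and 375 ± 27.9 CPM in male cells (log2 0.46 ± 0.08, edgeR adjusted p = 0.000151). Ehd3, a paralog of Ehd2, was at 3.05 ± 1.51 CPM in female and 7.09 ± 0.39 CPM in male cells (log2 -1.22 ± 0.29, edgeR adjusted p = 0.00167), while Ehd1 (log2 -0.01 ± 0.08) and Ehd4 (0.26 ± 0.15) were not called. Dnm3 (log2 1.42 ± 0.40) lost its call with the length correction (adjusted p = 0.104). Pacsin3 (log2 -0.38 ± 0.16, edgeR adjusted p = 0.0427) lost its call without female replicate 2 (log2 -0.18, adjusted p = 0.208), without male replicate 3 (-0.28, 0.186) and with the length correction (-0.36, 0.0502).

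Flotillins and stomatins, hairpin membrane proteins of other lipid domains, had 5 tested genes, of which 2 were higher and 2 lower, and a median of -0.14. Stom, the gene of stomatin, had a wide gap, at 595, 562 and 546 CPM in the female libraries and 105, 105 and 93.7 CPM in the male libraries (log2 2.49 ± 0.08, edgeR adjusted p = 1.05e-13). Flot2 was higher (log2 0.56 ± 0.09) and Flot1 lower (-0.30 ± 0.08, edgeR adjusted p = 0.00445; -0.08 and 0.36 with the length correction), as was Stoml2 (-0.47 ± 0.11; -0.27 with the length correction). Of 13 tested genes of the clathrin coat, the other main route of uptake, 6 were higher and 3 lower, and the median was 0.16. Eps15, an adaptor of clathrin pits, was at 128 ± 9.36 CPM in female and 50.2 ± 2.78 CPM in male cells (log2 1.35 ± 0.09, edgeR adjusted p = 6.85e-10). Cltb, clathrin light chain B, was at 12.2 ± 1.89 CPM in female and 37.5 ± 2.42 CPM in male cells (log2 -1.61 ± 0.13, edgeR adjusted p = 1.4e-08). Picalm (log2 0.81 ± 0.10) and Fcho2 (0.86 ± 0.12), proteins of pit assembly, were also higher, and with the length correction their values were smaller, at 0.31 for Picalm (adjusted p = 0.00265) and 0.44 for Fcho2 (adjusted p = 0.000853).

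**Figure D4:**
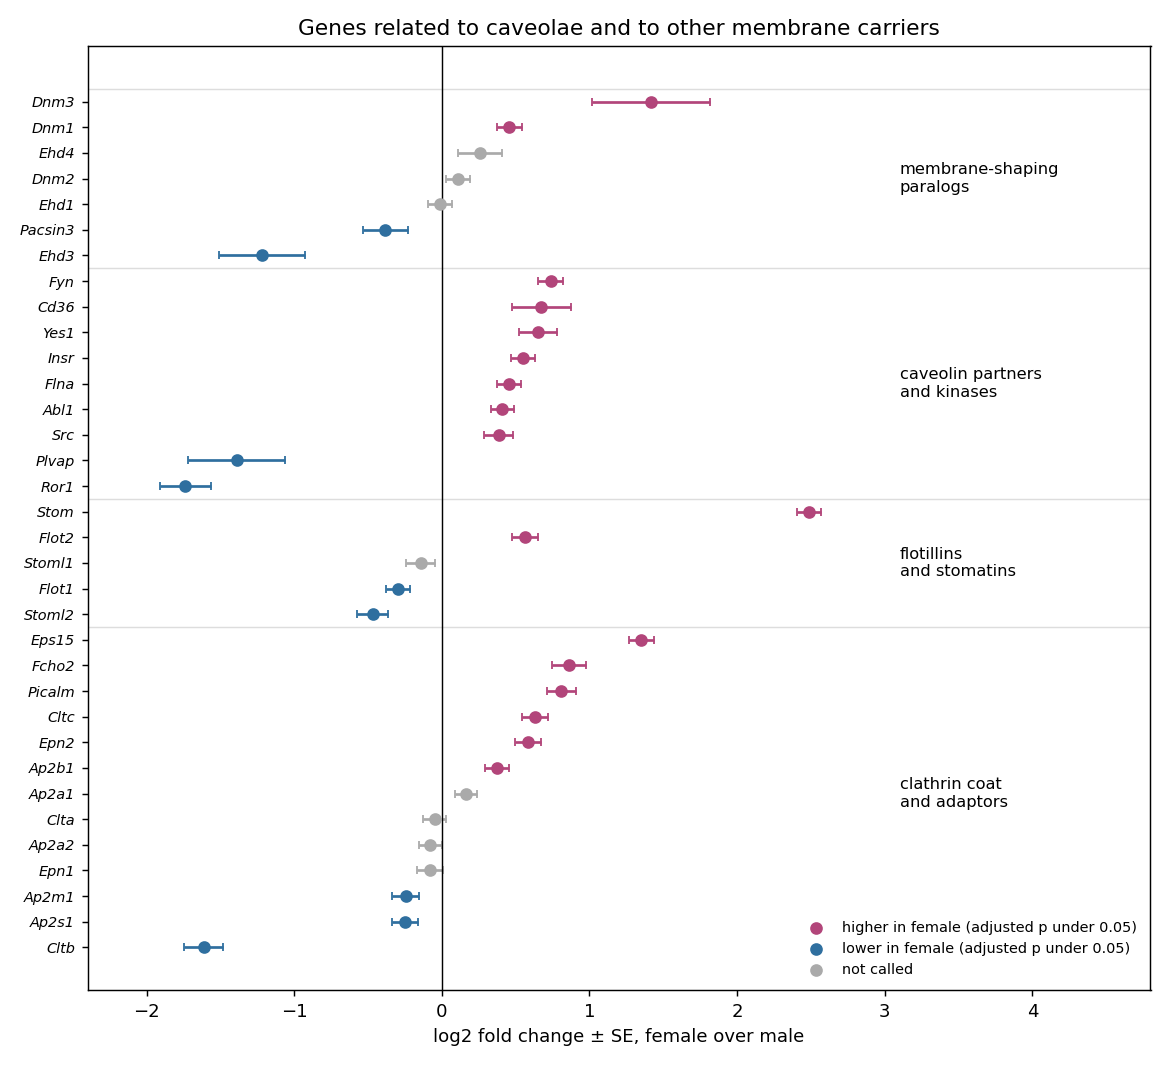
Log2 fold change with SE, female over male, of the tested genes of 4 related lists; colours mark genes called higher, called lower or not called at an adjusted p under 0.05. Most partners and kinases lie right of 0, Stom lies farthest right at 2.49, and Ror1 and Cltb lie farthest left at -1.74 and -1.61.

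The genes whose pattern over the 6 libraries was most like that of Cav1, by root mean square difference of centred log2 CPM among 10805 other genes with at least 5 CPM, were Bcl6 (0.0176), a transcriptional repressor, Hmga2 (0.0268), an architectural chromatin protein, and Usp32 (0.033), a deubiquitinase. Bcl6 was at 75.2, 84.6 and 74.3 CPM in the female libraries and at 51.6, 51.5 and 51.8 CPM in the male libraries, so it shares the high value of Cav1 in female replicate 2. Most like Cavin1 were Lztr1 (0.0201), Ghitm (0.0211) and Ncbp3 (0.0225). Likeness here is a description over 6 libraries in 2 groups.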

How the data were processed

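The deposited table holds raw read counts per gene, whole numbers the authors did not normalise. HISAT2 2.0.5, featureCounts 1.5 and the mm10 build are named in the submitters' processing notes. The sources used here give no strand or multi-mapping setting, so overlapping and antisense genes cannot be told apart. The 6 columns were matched by library name, with 0 other sample columns and 0 rows without a gene name. All 8 members had identical coordinates in GENCODE M21.

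The model was edgeR 4.0.16 under R 4.3.3 (filterByExpr, TMM, glmQLFit, glmQLFTest, sex as the only term, two-sided, Benjamini-Hochberg). Each SE was obtained from the fold change and its F statistic (size of the change over root F). CPM uses TMM-scaled library sizes, and RPKM also the deposited gene length. The fit was tested on simulated data in which few genes changed, in equal numbers up and down. Most tested genes were called in the real data, so the simulation does not bear on the scaling used here. Alternatives used DESeq2 1.42.0, limma-voom (limma 3.58.1), other scalings, no filter, a replicate block, a loess on gene length and leaving out each library. Same-sex libraries differed by more than counting noise (7 to 14.7 for the chi-square over its degrees of freedom). Counting limits (95%) cover counting error only.

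The members and lists were chosen with earlier results of these data known. Named were all members, up to 4 genes per related list with the smallest adjusted p, tested protein-coding neighbours within 500 kb and the 3 genes most like Cav1 and Cavin1. Other genes were named after their values were seen.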

Additional observations from a re-analysis of the deposited data

How the results depend on the processing

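Over the 14 alternatives the fold changes of the 7 members other than Cav3 kept their direction throughout, and 88 of 98 values kept their side of the threshold. The other 10 belonged to Cavin1 and Cavin3. Cavin1 lost its call with upper quartile scaling (log2 0.11, adjusted p = 0.186), total counts (0.07, 0.389), no low-count filter (0.19, 0.0526), the replicate block (0.19, 0.0646), and without female replicate 1 or 3 or male replicate 1 or 2 (0.17 to 0.20 over these 4). Under the other 6 alternatives its adjusted p-values were 0.000718 to 0.0495. Cavin3 lost its call with the length correction alone or with the replicate block (-0.14 in both, adjusted p = 0.221 and 0.281). These alternatives change the scaling, the number of genes or samples, or the length trend, and the cause was not tested further.

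The replicate numbers gave no sign of a pairing of the libraries. The correlations of same-numbered deviations were -0.0243, -0.114 and -0.164 across 10812 genes. No female library correlated best with the male library of its own number. A pairing with a small effect could look the same, so it is not excluded. With the replicate block 4360 genes were called higher and 4165 lower, against 4580 and 4413 without it, and of the members it ended only the call of Cavin1 (adjusted p = 0.0646). With the block and the length correction, 1 neighbour of Cav1 and Cav2 was higher in place of 2 (Met, 0.39, adjusted p = 0.0737). With total counts 3956 genes were higher and 5294 lower. The log2 difference of the Ehd2 to Cav1 ratio, -0.01, changed sign in 3 of the 6 fits that left out a library, and ran from -0.0557 to 0.0372. Among genes most like Cavin1, Ncbp3 turned to -0.32 with the length correction, with and without the block (adjusted p = 0.0201 and 0.00991), and was otherwise uncalled in the TMM fit (0.21, adjusted p = 0.0788). For Cav3, 0 counts in a female library allow a level of up to 0.154 CPM.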
